A study of Mus musculus with 12 samples.

Results

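The genes reported here carry out mitochondrial and peroxisomal fatty acid oxidation, from the attachment of coenzyme A to the transfer of electrons. They are 31 of the 24296 gene symbols in the deposited table and were chosen by the function of the encoded enzyme, with earlier results of these data known. Their counts against all genes are therefore not independent of the data. All 31 were among the 13158 genes tested, with 18 in the mitochondrial group, 10 in the peroxisomal group and 3 in neither. RNA sequencing was done on liver tissue of male C57/BL6N mice in which carbon tetrachloride (CCl4), a solvent that injures the liver, was used to produce fibrosis. What was injected intraperitoneally was CCl4 diluted in olive oil (1 part to 9 by volume), at 5 mL/kg of this dilution, with 2 doses weekly over 8 weeks. Silibinin, a flavonolignan of milk thistle, or phloridzin, a glucoside of apple that blocks sodium-coupled glucose transporters, was given from week 5 on, phloridzin at 40 mg/kg. The 12 livers fall into 4 groups of 3: control mice without CCl4, a model group with CCl4 alone, a silibinin group with CCl4 and silibinin, and a phloridzin group with CCl4 and phloridzin. Depth worked back from the table ran from 83.7 to 110.9 M fragments per liver, with 105.2 to 109.6 in the control group, 83.7 to 101.5 in the model group, 106.7 to 110.9 in the silibinin group and 98.5 to 104.7 in the phloridzin group.

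Long-chain fatty acids are activated to acyl-CoA, cross the inner mitochondrial membrane as carnitine esters, and are shortened in repeated rounds of dehydrogenation, hydration, dehydrogenation and thiolysis. Peroxisomes take very long and branched chains and bile acid precursors, use oxidases in the opening step, and pass shortened chains on as carnitine esters. In liver many of these genes, though not all, are under the nuclear receptor PPAR alpha, and malonyl-CoA, the product of acetyl-CoA carboxylase, inhibits the carnitine step.

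Values are FPKM summed over the transcripts of each symbol, and changes are differences of group means of log2(FPKM + 1), which understates the change of a gene with low values. A gene passed when its Benjamini-Hochberg adjusted p from limma was under 0.05, and the words rose and fell are kept for genes that passed. The p-values measure the spread between these livers, 3 per group. The first 3 comparisons share the model livers, so they are not independent, and changes are set side by side without a test between them. In whole liver, fewer of the cells that express a gene and less RNA of it per cell cannot be told apart.

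The first comparison, model against control, asks how these genes differed between livers with and without CCl4. What the control mice received is not described, so injection and olive oil may differ between the groups along with CCl4. Of the 31 members, 9 passed, against 34.9% of all genes tested. All 9 fell, against 3.80% of all genes, and 0 rose, against 31.1%. Among genes with a mean of at least 5 FPKM, 9 members fell, against 5.74%, and 0 rose, against 28.6%. At an unadjusted p under 0.05, 11 members were lower, against 5.59% of all genes, and 1 was higher, against 40.2% (limma), and voom on recovered fragments found 8 that passed, all lower, against 3.75% of all genes. The median log2 change of the members was -0.38 and that of all genes 0.34, and 28 of the 31 members were below 0. In 11 members every model liver was below every control liver, against 6.92% of all genes, and in 1 every model liver was above, against 45.1%. No member had a log2 change past 1 as well as a passing p, against 10.5% of all genes.

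That median of 0.34 over all genes depends on the scaling. Scaling the livers by median ratios moved it to 0.01 and scaling to the upper quartile moved it to 0.05, so changes are also given against the median of all genes. Of all genes that passed in the model comparison, 89.1% were higher as deposited, 53.1% after median ratios and 58.7% after the upper quartile. The 100 genes with the highest values held 45.3% to 48.5% of all gene FPKM in the control livers and 37.3% to 39.9% in the model livers. Under either scaling 20 members fell, against 11.7% and 10.2% of all genes, and 0 rose, against 13.3% and 14.5%, in model against control, with medians of -0.82 and -0.77. Without control replicate 1, control replicate 2, model replicate 1 or model replicate 2, 5, 4, 3 and 3 members fell, against 2.7%, 2.28%, 3.02% and 2.3% of all genes, and 1 rose without model replicate 1, against 25.4%.

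The next comparisons, each drug group against the model group, ask what was different when a drug was added. With silibinin 10 members passed, against 14.1% of all genes: 10 rose, against 2.62%, and 0 fell, against 11.4%. The median log2 change was 0.56 for the members and -0.15 for all genes, 28 of the 31 were above 0, and in 23 every silibinin liver was above every model liver, against 8.91% of all genes. Cpt1a and Crot also had a log2 change past 1, against 4.0% of all genes. With phloridzin 7 members passed, against 12.9% of all genes: 7 rose, against 2.5%, and 0 fell, against 10.4%. Here the median was 0.49 for the members and -0.11 for all genes, 29 of the 31 were above 0, and in 13 every phloridzin liver was above every model liver, against 8.21%. No member passed with a log2 change past 1 with phloridzin, against 3.52% of all genes. Among genes with a mean of at least 5 FPKM, 11 members rose with silibinin, against 4.77%, and 7 with phloridzin, against 4.23%. At an unadjusted p under 0.05 (limma), 20 members were higher with silibinin, against 6.74% of all genes, and 13 with phloridzin, against 6.98%, and 0 were lower with either drug, against 22.5% and 20.8%. Neither scaling changed these directions: by median ratios 19 members rose with silibinin and 12 with phloridzin, against 5.56% and 4.72% of all genes, and by the upper quartile 20 and 14, against 6.35% and 5.09%. The share of higher genes among all that passed was 18.7% with silibinin as deposited, 46.2% by median ratios and 52.5% by the upper quartile, and with phloridzin 19.5%, 42.9% and 45.3%.

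These counts rest on few livers. With silibinin 4 members passed without model replicate 1, 6 without model replicate 2, 5 without silibinin replicate 1, 5 without silibinin replicate 2 and 6 without silibinin replicate 3, all higher, against 1.78%, 1.17%, 1.41%, 1.44% and 1.94% of all genes higher in the same fits. With phloridzin 2 passed without model replicate 1, 2 without model replicate 2, 4 without phloridzin replicate 1, 1 without phloridzin replicate 2 and 4 without phloridzin replicate 3, all higher, against 1.39%, 0.897%, 2.76%, 1.03% and 1.42%. By gene, 6 members passed in all of the first 3 comparisons (Cpt2, Echs1, Etfdh, Decr2, Crot and Acad11), against 9.29% of all genes, 13 passed in at least 1, against 37.7%, and 18 passed in none, against 62.3%. All 6 were lower in model against control and higher with both drugs, as were 1.19% of all genes, while 8.1% were higher in model against control and lower with both drugs. The 3 comparisons share the model livers, so passing in 1 is not independent of passing in another. Summed over the 31 members, the level was 3727, 4463 and 3782 FPKM in the control livers, 2666, 3049.7 and 3972 in the model livers, 4588, 4696 and 5303 in the silibinin livers and 4735, 4843 and 4029.7 in the phloridzin livers, which is 0.97% to 1.75% of all gene FPKM in a liver. Scp2 held 20.2% of the summed level over all livers. It was at 721, 789 and 872 FPKM in the control livers and 515, 769.6 and 996 in the model livers.

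**Figure D1:**
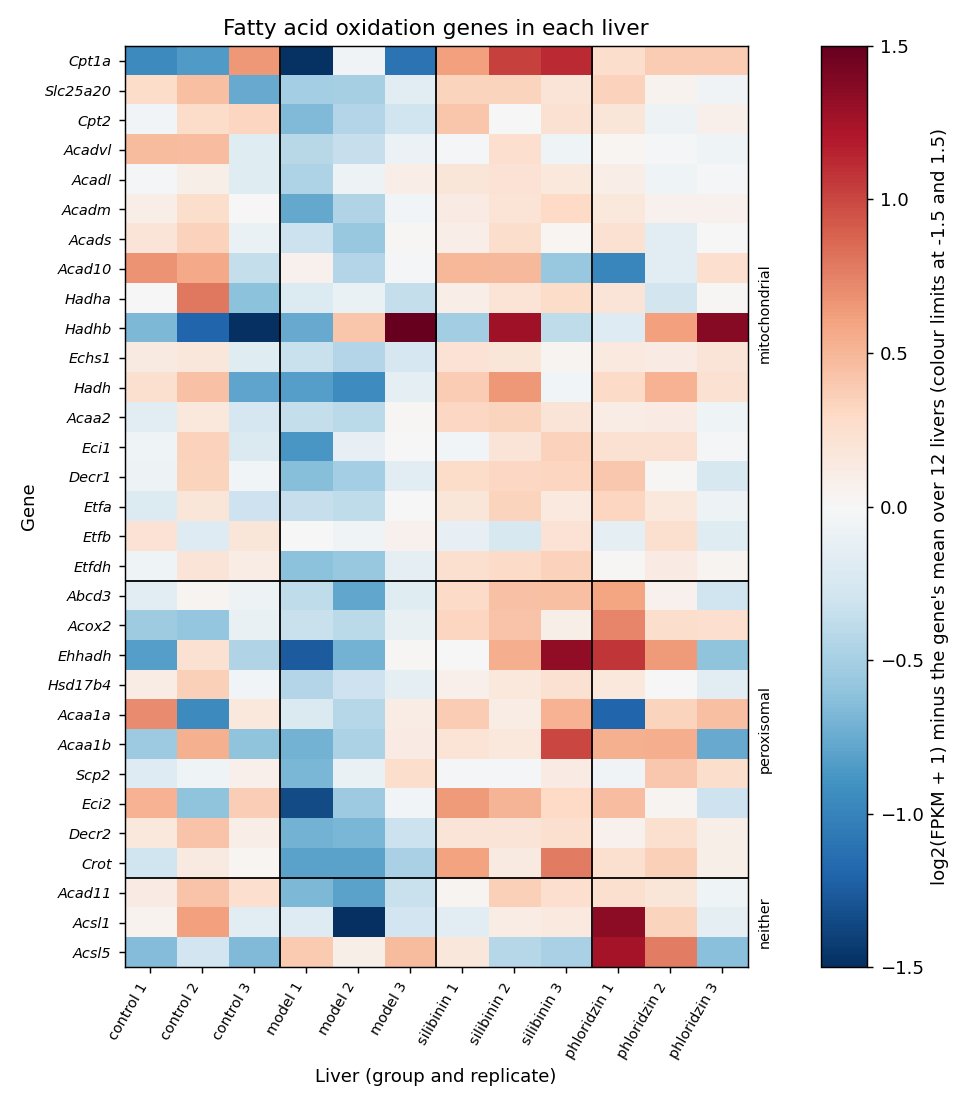
Heat map of the 31 members (vertical) in the 12 livers (horizontal), coloured by log2(FPKM + 1) minus the mean of the gene. Values below the mean of the gene number 77 of 93 in the model livers, 45 in the control, 15 in the silibinin and 29 in the phloridzin livers, with 28 of 31 members lower than control on average.

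At the entry to the mitochondrion, Cpt1a (chromosome 19, 3322334 to 3385733 on mm10, which is GRCm38, as are all gene positions here) encodes the carnitine palmitoyltransferase of the outer membrane, the step inhibited by malonyl-CoA. Its level was 36.2, 39 and 112 FPKM in the control livers, 24.7, 68.7 and 32.4 in the model livers, 109.8, 146 and 155 in the silibinin livers and 85.7, 92.9 and 92.9 in the phloridzin livers. The control livers overlapped the model livers, and the silibinin and phloridzin livers all lay above the model livers. Cpt1a rose with silibinin by 1.80 on the log2 scale (SE 0.43, 1.96 against the median of all genes; Benjamini-Hochberg adjusted p in limma = 0.02), in 3 of 3 livers. Without model replicate 1, model replicate 3, silibinin replicate 2 or silibinin replicate 3 the adjusted p from limma was 0.071, 0.062, 0.059 and 0.07, and over all 18 alternatives it ran from 0.013 to 0.071. Here and below, the 18 alternatives include the fit on Ensembl transcripts only, which repeats the main fit and passes whenever that does. With phloridzin the log2 change was 1.22 (95% interval 0.26 to 2.19, Benjamini-Hochberg adjusted p in limma = 0.094) and did not pass. In model against control it was -0.50 (95% interval -1.46 to 0.47).

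Cpt2 (chromosome 4, 107903981 to 107923610) rebuilds acyl-CoA on the inner side. Its level was 39.5, 49.4 and 51.1 FPKM in the control livers, 25.3, 29.7 and 33 in the model livers, 54.7, 41 and 47.9 in the silibinin livers and 46.3, 38.7 and 42.9 in the phloridzin livers. All control, silibinin and phloridzin livers were above all model livers. The log2 change was -0.65 in model against control (SE 0.16, -0.99 against the median of all genes; Benjamini-Hochberg adjusted p in limma = 0.0094). With silibinin it was 0.69 (limma, adjusted p = 0.015) and with phloridzin 0.53 (limma, adjusted p = 0.049). The silibinin call was lost without model replicate 1 (limma, adjusted p = 0.056) or silibinin replicate 1 (0.064). The phloridzin call was lost without any single model or phloridzin liver, at adjusted p (limma) of 0.16, 0.11 and 0.054 without model replicates 1, 2 and 3 and 0.095, 0.08 and 0.11 without phloridzin replicates 1, 2 and 3, and passed in 4 of 18 alternatives. Slc25a20, the carrier that exchanges acylcarnitine for carnitine between them, had log2 changes of -0.38, 0.68 and 0.51 in the first 3 comparisons and passed in none.

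Before that step, Acsl1 (chromosome 8, 46471037 to 46536051) and Acsl5 (chromosome 19, 55251938 to 55297720) attach coenzyme A to long chains, on the outer mitochondrial membrane and the endoplasmic reticulum. Acsl1 was at 35.8, 53.3 and 30.7 FPKM in the control livers, 30.00, 10.1 and 28 in the model livers, 30.7, 37.2 and 38 in the silibinin livers and 88.3, 43.5 and 31.3 in the phloridzin livers. Acsl5 was at 10.03, 13.2 and 9.98 FPKM in the control livers, 21.7, 17.5 and 23.1 in the model livers, 18.6, 11.9 and 11.4 in the silibinin livers and 40.2, 28.6 and 10.2 in the phloridzin livers. All model livers were below all control livers for Acsl1 and above them for Acsl5, while the drug groups overlapped the model group for Acsl5. Neither gene passed: for Acsl1 the log2 change was -0.89 in model against control (95% interval -1.85 to 0.07) and 1.23 with phloridzin (95% interval 0.27 to 2.19), and for Acsl5 it was 0.85 in model against control (95% interval -0.02 to 1.72). The highest transcript of Acsl1, a coding one, held 37.3% of its sum. Acsl1-210, Acsl1-204 and Acsl1-206, with retained introns, had means of 8.74, 6.28 and 3.69 FPKM, so the sum measures the coding message only in part.

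The acyl-CoA dehydrogenases open each mitochondrial round and differ in chain length. Acadvl (chromosome 11, 70010183 to 70015411), for very long chains, was at 199.6, 197 and 126 FPKM in the control livers, 107, 112 and 134 in the model livers, 139.6, 170.2 and 137 in the silibinin livers and 146, 140.2 and 137 in the phloridzin livers. Acadm (chromosome 3, 153922357 to 153944632), for medium chains, was at 118, 133 and 111 FPKM in the control livers, 64.4, 80.2 and 107 in the model livers, 120.1, 127 and 136 in the silibinin livers and 123, 115 and 115 in the phloridzin livers. For Acadvl the lowest control liver, at 126, lay inside the range of the model livers, and all drug-group livers were above all model livers. For Acadm all model livers were below all control livers and all drug-group livers were above all model livers. Acadvl fell by 0.54 on the log2 scale in model against control (SE 0.19, -0.88 against the median of all genes; Benjamini-Hochberg adjusted p in limma = 0.046), with 2 of the 3 control livers above every model liver. Its call was lost without control replicate 1 (limma, adjusted p = 0.15), control replicate 2 (0.14), model replicate 1 (0.13) or model replicate 2 (0.11). When the transcript with the highest mean stood for the gene, the log2 change of Acadvl was 0.08. On protein-coding transcripts only it was -0.23 and by voom on recovered fragments -0.31 (limma, adjusted p = 0.26 and 0.12), both alternatives chosen after seeing the data. The Acadvl call passed in 8 of 18 alternatives. Acadm fell by 0.55 (Benjamini-Hochberg adjusted p in limma = 0.03) and rose by 0.63 with silibinin (limma, adjusted p = 0.033), with 0.51 with phloridzin not passing (95% interval 0.14 to 0.89). In model against control the Acadm call was lost without control replicate 1, control replicate 2, model replicate 1 or model replicate 2 (limma, adjusted p = 0.064, 0.096, 0.1 and 0.077). With silibinin it was lost without model replicate 1 or 2 (0.097 and 0.094) or any silibinin liver (0.069, 0.078 and 0.1). Over all 18 alternatives the 2 Acadm calls passed in 12 and 10.

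Of the other acyl-CoA dehydrogenases in the mitochondrial group, Acadl, Acads and Acad10 had log2 changes of -0.11, -0.44 and -0.43 in model against control and passed in none of the first 3 comparisons. Acad11 (chromosome 9, 104063377 to 104127725), placed in neither group here, encodes a dehydrogenase for longer chains. Its level was 101, 125 and 111 FPKM in the control livers, 57.7, 52.6 and 73.2 in the model livers, 95.6, 119 and 111 in the silibinin livers and 109.9, 105 and 89 in the phloridzin livers. Every model liver was below every liver of the other 3 groups. Acad11 fell by 0.87 in model against control (SE 0.16, -1.21 against the median of all genes; Benjamini-Hochberg adjusted p in limma = 0.0024). It rose by 0.82 with silibinin (limma, adjusted p = 0.0079) and by 0.73 with phloridzin (limma, adjusted p = 0.015). The first pair of calls held in all 18 alternatives, and the phloridzin call was lost without model replicate 1, model replicate 2 or phloridzin replicate 2 (limma, adjusted p = 0.05, 0.061 and 0.057), with the transcript with the highest mean (0.19, at a log2 change of 0.35) and with only the compared groups in the fit (0.075), passing in 13 of 18.

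In the later steps, Hadha (chromosome 5, 30118304 to 30155162) and Hadhb encode the 2 subunits of the trifunctional protein, which hydrates, oxidises and cleaves long chains. Hadha was at 42.6, 74.7 and 27.6 FPKM in the control livers, 37, 39.9 and 33.1 in the model livers, 46.1, 49.4 and 52.1 in the silibinin livers and 49, 35.1 and 43.2 in the phloridzin livers, with overlap between all groups except that every silibinin liver was above every model liver. Its log2 change in model against control was -0.28 (95% interval -0.91 to 0.35) and with silibinin 0.42 (95% interval -0.21 to 1.04). Its summed value is 73.0% a transcript annotated with a retained intron, so it measures the coding message only in part. The only coding transcript of Hadha was at 7.13, 30.9 and 1.64 FPKM in the control livers and 2.23, 2.95 and 6.08 in the model livers. With silibinin it was at 0, 5.06 and 0, and with phloridzin at 6.55, 4.68 and 0. Its silibinin livers were therefore not all above its model livers. Hadhb, at a log2 change of 1.53 in model against control (95% interval 0.13 to 2.94), was the highest of the 31 and did not pass (Benjamini-Hochberg adjusted p in limma = 0.083); its model livers were at 15.3, 35.6 and 79.8 FPKM and it passed, higher, only without model replicate 1. Echs1, the hydratase for short chains, chosen after its values were seen because it passed in all of the first 3 comparisons, was at 99.8, 102 and 79.9 FPKM in the control livers, 71.6, 66.8 and 76.3 in the model livers, 106, 103 and 93.7 in the silibinin livers and 101, 99.1 and 104 in the phloridzin livers. All model livers were below every liver of the other groups. Its log2 changes were -0.38, 0.49 and 0.50 in the first 3 comparisons (Benjamini-Hochberg adjusted p in limma = 0.037, 0.027 and 0.027). Of 18 alternatives these calls passed in 11, 12 and 11. Hadh and Acaa2, the dehydrogenase and thiolase that follow, had log2 changes of 0.97 and 0.53 with silibinin and passed in none.

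Unsaturated chains need Eci1 and Decr1, an isomerase and a reductase. Decr1 rose by 0.74 with silibinin (Benjamini-Hochberg adjusted p in limma = 0.027), every silibinin liver being above every model liver, and Eci1 passed in none of the first 3 comparisons. Etfdh, which hands electrons from the dehydrogenases to ubiquinone, was also chosen after its values were seen, because it passed in all of the first 3 comparisons, and was at 101, 121 and 114 FPKM in the control livers, 68.8, 71 and 96.2 in the model livers, 125, 129 and 134 in the silibinin livers and 107, 115 and 109 in the phloridzin livers. Every model liver was below every liver of the other groups. Its log2 changes were -0.51, 0.72 and 0.50 (Benjamini-Hochberg adjusted p in limma = 0.019, 0.0085 and 0.044). These calls passed in 13, 17 and 8 of 18 alternatives, and that of Decr1 in 12. Etfa and Etfb, the flavoprotein subunits before it, had log2 changes of -0.13 and -0.06 in model against control and did not pass.

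**Figure D2:**
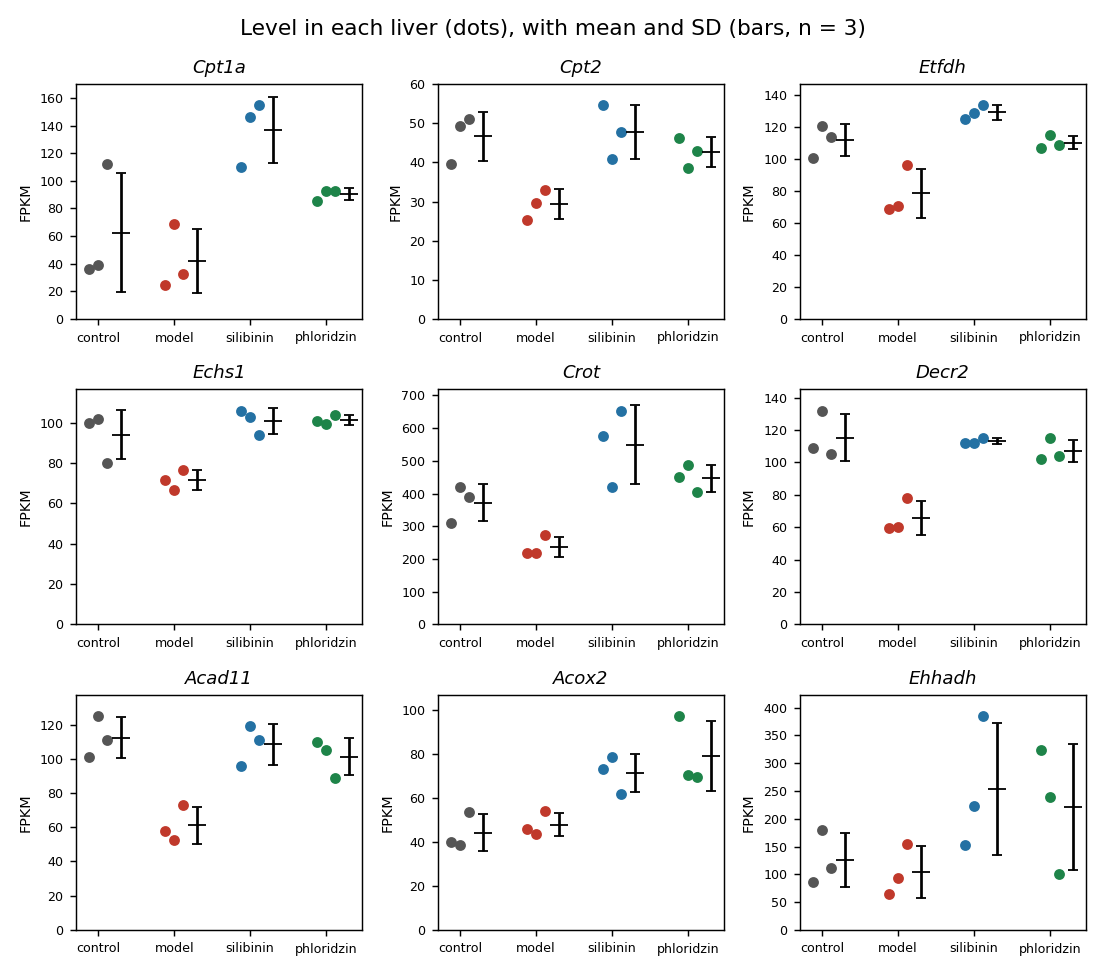
FPKM (vertical) of 9 members in the 12 livers by group, with points for livers and bars for the group mean and SD. For Acad11, Decr2, Crot, Cpt2, Echs1 and Etfdh every model liver lies below every liver of the other groups.

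In the peroxisome, Abcd3 (chromosome 3, 121758774 to 121815302) encodes a membrane transporter that brings in chains and bile acid precursors. Its level was 136, 156 and 143 FPKM in the control livers, 116, 88 and 133 in the model livers, 185, 205 and 207 in the silibinin livers and 229, 158 and 123 in the phloridzin livers. Every silibinin liver was above every model liver, the control livers were all above the model livers, and the phloridzin livers overlapped them. Abcd3 rose by 0.84 with silibinin (SE 0.22, 0.99 against the median of all genes; Benjamini-Hochberg adjusted p in limma = 0.03), a call lost without model replicate 1 or 2 (limma, adjusted p = 0.063 and 0.11) or any silibinin liver (0.065, 0.079 and 0.089) and kept in 12 of 18 alternatives. Acox2 (chromosome 14, 8225511 to 8259353), the oxidase for branched chains and bile acid side chains, was at 40.02, 38.6 and 53.8 FPKM in the control livers, 46.1, 43.8 and 53.9 in the model livers, 73.1, 78.7 and 61.8 in the silibinin livers and 97.3, 70.5 and 69.6 in the phloridzin livers. Its control and model livers overlapped, and its drug-group livers were all above its model and control livers. It rose by 0.70 with phloridzin (Benjamini-Hochberg adjusted p in limma = 0.03) and was 0.56 with silibinin (limma, adjusted p = 0.065), not passing. The phloridzin call was lost without model replicate 1, model replicate 2, phloridzin replicate 1 or phloridzin replicate 2 (limma, adjusted p = 0.084, 0.097, 0.061 and 0.056), and passed in 10 of 18 alternatives.

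The next steps are shared by Ehhadh (chromosome 16, 21761287 to 21787807) and Hsd17b4 (chromosome 18, 50128201 to 50196269), bifunctional enzymes that hydrate and oxidise, the latter in bile acid synthesis. Ehhadh was at 86.1, 180.3 and 112 FPKM in the control livers, 64, 93.6 and 155 in the model livers, 152, 223 and 385 in the silibinin livers and 324, 239.8 and 100.4 in the phloridzin livers. Hsd17b4 was at 169, 201 and 152 FPKM in the control livers, 115, 126 and 142 in the model livers, 164, 174 and 183 in the silibinin livers and 174, 155 and 139.8 in the phloridzin livers. Ehhadh overlapped between model and every other group, while for Hsd17b4 every model liver was below every control and silibinin liver and overlapped the phloridzin livers. Hsd17b4 fell by 0.44 in model against control (Benjamini-Hochberg adjusted p in limma = 0.04), a call lost without control replicate 1, control replicate 2, model replicate 1 or model replicate 2 (limma, adjusted p = 0.079, 0.14, 0.12 and 0.092) and kept in 10 of 18 alternatives. Ehhadh passed in none, with log2 changes of -0.30, 1.26 and 1.01 and 95% intervals of -1.40 to 0.81, 0.15 to 2.37 and -0.09 to 2.12.

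The thiolases Acaa1a (chromosome 9, 119339676 to 119350299) and Acaa1b (chromosome 9, 119148023 to 119157093) are near-identical neighbours, so reads may have been assigned to either. Acaa1a was at 82.5, 25.2 and 56 FPKM in the control livers, 42.9, 36.8 and 54 in the model livers, 65.2, 53.9 and 72.2 in the silibinin livers and 21.4, 63.3 and 68.7 in the phloridzin livers. Acaa1b was at 206, 434 and 197 FPKM in the control livers, 184, 216 and 328 in the model livers, 346, 336 and 602 in the silibinin livers and 435, 438 and 178 in the phloridzin livers. In Acaa1b every silibinin liver was above every model liver, and otherwise the groups overlapped in both genes. Neither passed, with log2 changes in the first 3 comparisons of -0.15, 0.51 and 0.05 for Acaa1a and -0.14, 0.81 and 0.46 for Acaa1b. Scp2, a thiolase and sterol carrier and the member with the highest mean FPKM (841), and Eci2, an isomerase for unsaturated chains, passed in none, with log2 changes of -0.11 and -0.74 in model against control.

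Decr2 (chromosome 17, 26081208 to 26090337) is the peroxisomal reductase for unsaturated chains. Its level was 109, 132 and 105 FPKM in the control livers, 59.4, 60.2 and 77.9 in the model livers, 112, 112 and 115 in the silibinin livers and 102, 115 and 104 in the phloridzin livers. Crot (chromosome 5, 8966033 to 8997324) makes octanoylcarnitine for export and was at 310.1, 419 and 388 FPKM in the control livers, 218, 218 and 272 in the model livers, 576, 419 and 654 in the silibinin livers and 449.7, 487 and 405 in the phloridzin livers. For both genes every model liver was below every liver of the other groups. Decr2 fell by 0.80 in model against control (SE 0.14, -1.14 against the median of all genes; Benjamini-Hochberg adjusted p in limma = 0.002) and rose by 0.78 with silibinin and 0.70 with phloridzin (limma, adjusted p = 0.0057 and 0.01). Crot fell by 0.65 (SE 0.20, -0.99 against the median of all genes; Benjamini-Hochberg adjusted p in limma = 0.028) and rose by 1.20 with silibinin and 0.92 with phloridzin (limma, adjusted p = 0.0037 and 0.014). The Crot call in model against control was lost without control replicate 2, control replicate 3, model replicate 1 or model replicate 2 (limma, adjusted p = 0.092, 0.074, 0.08 and 0.085). With phloridzin it was lost without model replicate 2 or phloridzin replicate 2 (0.055 and 0.058). The phloridzin call of Decr2 was lost with only the compared groups in the fit (limma, adjusted p = 0.067).

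**Figure D3:**
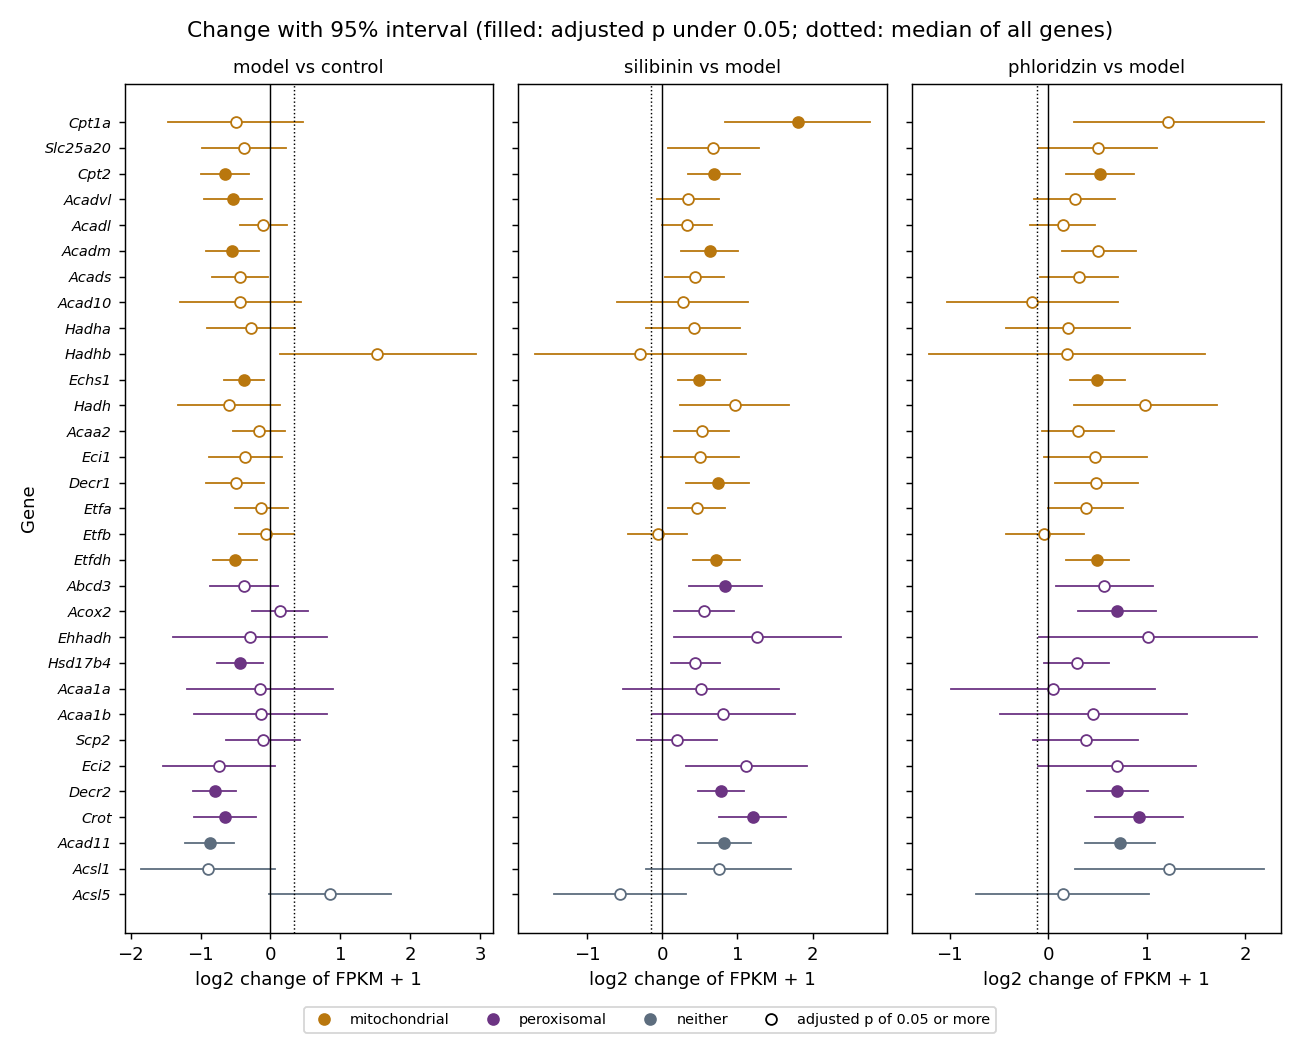
Log2 change (horizontal) with its 95% interval for each member (vertical) in model against control, silibinin against model and phloridzin against model. Decr2 is at -0.80, 0.78 and 0.70 and Crot at -0.65, 1.20 and 0.92.

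Acad11, Decr2 and Crot had the largest changes among the 6 members that passed in all of the first 3 comparisons. Their promoter sequences, of 300 bases each, are given on the strand of the gene, from RefSeq on GRCm38.p6, with GC boxes (GGGCGG) and CCAAT boxes on either strand in capitals.

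Acad11: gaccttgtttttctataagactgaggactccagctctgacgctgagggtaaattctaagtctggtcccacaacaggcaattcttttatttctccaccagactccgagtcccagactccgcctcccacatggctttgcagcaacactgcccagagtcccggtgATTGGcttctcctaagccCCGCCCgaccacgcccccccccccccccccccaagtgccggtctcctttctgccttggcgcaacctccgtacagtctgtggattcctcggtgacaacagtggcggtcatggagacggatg

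Decr2: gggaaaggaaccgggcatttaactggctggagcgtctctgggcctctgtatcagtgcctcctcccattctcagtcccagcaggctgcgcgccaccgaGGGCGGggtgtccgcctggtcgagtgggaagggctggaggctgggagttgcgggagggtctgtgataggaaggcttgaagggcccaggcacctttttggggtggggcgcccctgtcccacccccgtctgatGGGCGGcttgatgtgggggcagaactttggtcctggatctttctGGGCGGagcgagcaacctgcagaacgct

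Crot: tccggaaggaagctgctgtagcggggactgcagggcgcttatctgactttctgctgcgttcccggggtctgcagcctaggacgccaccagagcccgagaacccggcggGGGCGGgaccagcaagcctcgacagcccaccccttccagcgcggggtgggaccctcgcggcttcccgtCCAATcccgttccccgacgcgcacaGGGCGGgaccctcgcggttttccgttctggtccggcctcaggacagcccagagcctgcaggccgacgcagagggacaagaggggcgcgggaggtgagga

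The stretches are placed around a start given by RefSeq, which is not always the outer bound of the gene. They lie outside the RefSeq gene for 250 bases in Acad11, 92 in Decr2 and 250 in Crot, but outside the wider gene positions given above for 0, 77 and 72, so by those positions most of each stretch lies inside the gene. They are chr9:104063474-104063773 on the plus strand for Acad11, chr17:26090115-26090414 on the minus strand for Decr2 and chr5:8997097-8997396 on the minus strand for Crot. Acad11 holds 1 GC box and 1 CCAAT box, Decr2 holds 3 GC boxes and Crot holds 2 GC boxes and 1 CCAAT box. Promoters were matched for 28 of the 31 members, all but Acaa2, Decr1 and Hsd17b4. A GC box was in 20 of the 28, against 35.7% of 32851 promoters, a CCAAT box in 14, against 37.4%, and TATAAA in 0, against 13.6%. The nuclear receptor site AGGTCA was in 5 of the 28 (Cpt1a, Acadvl, Acadm, Echs1 and Scp2), against 16.3%, and its direct repeat with 1 base between, AGGTCANAGGTCA, was in 0, against 0.0396%. A match describes the letters, and its absence says nothing about whether the factor binds elsewhere.

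Mitochondrial and peroxisomal members were then set beside each other. In the mitochondrial group 5 of 18 fell in model against control, 6 rose with silibinin and 3 rose with phloridzin. In the peroxisomal group 3 of 10 fell, 3 rose with silibinin and 3 rose with phloridzin. The shares of all genes were 3.80%, 2.62% and 2.5%. The median log2 change in model against control was -0.41 for mitochondrial and -0.34 for peroxisomal members, a difference of 0.06 (SD between livers 0.16). With silibinin the medians were 0.49 and 0.79, a difference of 0.30 (SD 0.22), and with phloridzin 0.43 and 0.63, a difference of 0.20 (SD 0.31). Leaving out 1 liver at a time gave differences of -0.08 to 0.16 in model against control, the lowest without control replicate 1, 0.16 to 0.34 with silibinin and 0.16 to 0.30 with phloridzin. Only the silibinin difference was larger than its SD between livers. Without silibinin replicate 3 it was 0.16, below that SD of 0.22. No test was run between the groups of genes.

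Phloridzin against silibinin asks whether the drugs, given at different doses, left different levels. No member passed of 31, against 0.0228% of all genes (0.00760% higher and 0.0152% lower; limma), 0 had an unadjusted p under 0.05, against 3.75%, and voom found 0. The medians were -0.15 for the members and 0.03 for all genes, and in 4 members (Cpt1a, Acadl, Acaa2 and Etfdh) every phloridzin liver was below every silibinin liver, against 2.80% of all genes, while in 0 members every phloridzin liver was above, against 5.19%. The largest difference was 0.71 for Acsl5 (95% interval -0.17 to 1.58), and Cpt1a was at -0.58 (95% interval -1.54 to 0.38). The peroxisomal minus mitochondrial median was -0.12 (SD between livers 0.34), and from -0.19 to 0.07 when 1 liver was left out, the highest without silibinin replicate 3. These intervals do not show that the levels were equal.

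Each drug group was also compared with the control group, to see whether levels differed from those without CCl4. With silibinin 0 of 31 members passed, against 5.02% of all genes (4.59% higher and 0.433% lower; 1.98% with a log2 change past 1; limma), with 3 at an unadjusted p under 0.05, against 21.5%, and 0 by voom, and the median was 0.23 for the members and 0.16 for all genes, but 0.00 for the members by median ratios and 0.08 by the upper quartile, with -0.01 and 0.05 for all genes. With phloridzin 1 member passed, against 7.99% of all genes (7.51% higher and 0.479% lower; 3.02% with a log2 change past 1), and the median was 0.12 for the members and 0.18 for all genes, but -0.15 for the members by median ratios and -0.08 by the upper quartile, with -0.01 and 0.04 for all genes. That member was Acox2, which rose by 0.83 (SE 0.18, 0.64 against the median of all genes; Benjamini-Hochberg adjusted p in limma = 0.023) and was 0.69 with silibinin (limma, adjusted p = 0.056). The Acox2 call was lost without control replicate 1, control replicate 2 or phloridzin replicate 1 (limma, adjusted p = 0.083, 0.08 and 0.063), when scaled by median ratios (0.07, at a log2 change of 0.56), with the transcript with the highest mean (0.064) and with only the compared groups in the fit (0.097), and kept in 12 of 18 alternatives, and 2 members rose without phloridzin replicate 3, against 9.17% of all genes. With silibinin against control 1 member rose without control replicate 3, against 1.81%.

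The members have 162 transcripts in the table, of which 119 were tested among 50485. In model against control 11 fell and 1 rose, against 1.77% and 12.5% of all transcripts, 6 rose with silibinin, against 0.757%, and 3 rose with phloridzin, against 0.671%. In either direction 14.2%, 4.54% and 4.40% of all transcripts passed. Across all transcripts 4.78%, 2.03% and 1.95% passed with a log2 change past 1 in these comparisons. In silibinin against control and phloridzin against control 1 member transcript fell in each, against 0.113% and 0.111% of all transcripts. In either direction 0.331% and 0.355% passed, and 0.283% and 0.291% with a log2 change past 1. In phloridzin against silibinin 0 passed (limma), against 0.0277%. At an unadjusted p under 0.05 (limma), 1 member transcript was higher and 3 were lower. The share of all transcripts at that threshold is not given, so nothing is read from these counts. Acad11-201, a coding transcript, was at 15.8, 28.2 and 29.1 FPKM in the control livers, 0.587, 0.384 and 6.34 in the model livers, 15.4, 37 and 22.4 in the silibinin livers and 39.3, 27.6 and 22.5 in the phloridzin livers, and its log2 changes were -3.28, 3.27 and 3.57 (Benjamini-Hochberg adjusted p in limma = 0.008, 0.016 and 0.012). Acsl1-201, a coding transcript, was at 9.1, 3.88 and 1.75 FPKM in the control livers, 0.0184, 0.296 and 0.0794 in the model livers, 0.118, 0.0278 and 0.0513 in the silibinin livers and 0.211, 0.201 and 0.0104 in the phloridzin livers, so the drug groups stayed near the model group. Its log2 change was -2.19 in model against control (limma, adjusted p = 0.0059), -2.27 in silibinin against control (0.039) and -2.18 in phloridzin against control (0.046). Acaa1b-202, with a retained intron, fell by 1.92 in model against control (limma, adjusted p = 0.025) and rose by 2.13 with silibinin (0.033). Acadvl-207, also with a retained intron, fell by 1.06 in model against control (limma, adjusted p = 0.031). With silibinin Acaa1a-205, with a retained intron, rose by 1.32 and a noncoding transcript of Eci2 by 1.35 (limma, adjusted p = 0.03 and 0.016). Scp2-208, a noncoding transcript, was at 333 and 452 FPKM in model replicates 2 and 3, where another noncoding transcript of the gene was listed at 0, and at 6.75 or lower in every other control and model liver, so its rise of 4.11 (limma, adjusted p = 0.049) coincides with a shift between transcripts of 1 gene. The library kit is not described as stranded, so reads of overlapping genes cannot be told apart.

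Beyond the members, lists of related genes were counted in the same fit, in which 31.1% of all genes rose and 3.80% fell in model against control, 2.62% rose and 11.4% fell with silibinin, and 2.5% rose and 10.4% fell with phloridzin. Of 19 other peroxisomal genes 6 fell in model against control, 4 rose with silibinin and 2 rose with phloridzin, with medians of -0.34, 0.47 and 0.17 against 0.34, -0.15 and -0.11 for all genes. Of 22 other mitochondrial genes 5 fell and 3 rose in model against control, 6 rose with silibinin, and 5 rose and 1 fell with phloridzin, with medians of -0.38, 0.33 and 0.38. In the list of acyl-CoA synthetases and fatty acid binding, 12 genes, 3 rose in model against control, 1 rose and 2 fell with silibinin, and 2 fell with phloridzin, with medians of -0.20, 0.19 and 0.27. The 5 genes of carnitine supply had 2 that fell in model against control, 2 that rose with silibinin and 0 that passed with phloridzin (limma). With phloridzin 3 of them were higher at an unadjusted p under 0.05, against 6.98% of all genes. The medians of this list were -0.67, 0.45 and 0.69. Omega oxidation, 9 genes, had 5 that fell in model against control, 5 that rose with silibinin and 2 that rose with phloridzin, with medians of -1.02, 0.96 and 0.84. Of 24 regulators 7 rose and 3 fell in model against control, 3 rose and 2 fell with silibinin, and 2 rose and 3 fell with phloridzin. Their median in model against control was 0.16 as deposited but -0.27 by median ratios and -0.22 by the upper quartile, so its sign flips. In phloridzin against silibinin 0 genes of any of these lists passed (limma). At an unadjusted p under 0.05 there were 2 higher and 2 lower genes of omega oxidation and 1 lower regulator. Of all genes 2.53% were higher and 1.22% lower at that threshold.

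**Figure D4:**
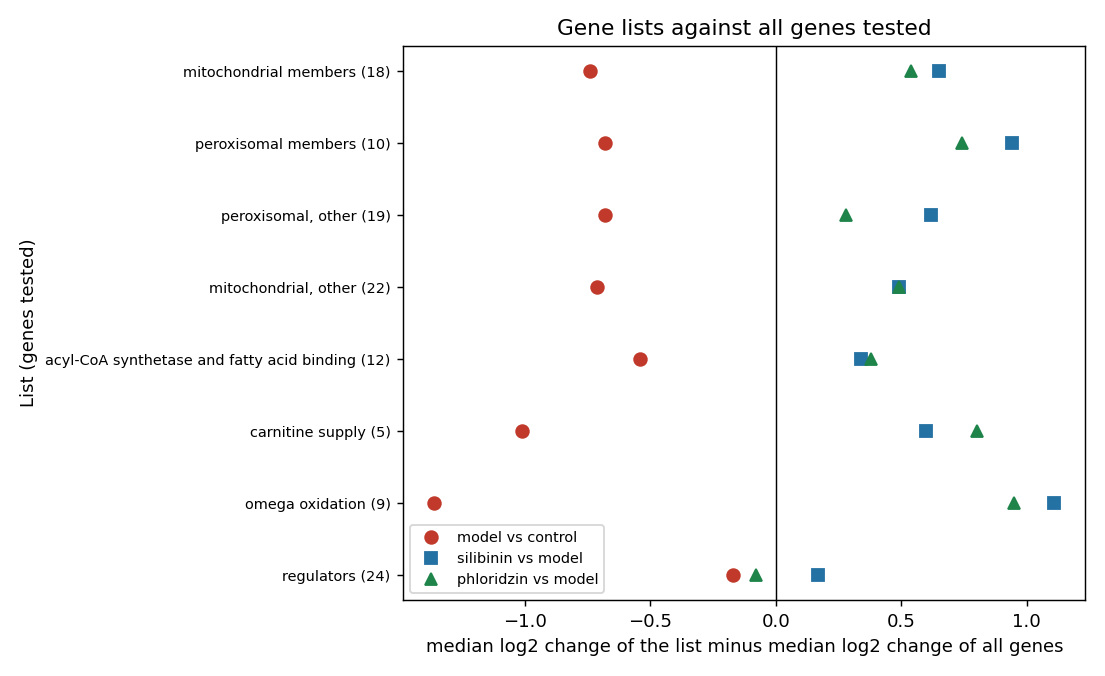
Median log2 change of each list minus the median of all genes (horizontal) for model against control, silibinin against model and phloridzin against model. The omega oxidation list is the farthest from 0, at -1.36, 1.11 and 0.95.

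Cyp4a10, the cytochrome of omega oxidation with the highest mean, was at 213, 218 and 186 FPKM in the control livers, 51.6, 82.1 and 204 in the model livers, 303, 299.6 and 295 in the silibinin livers and 148, 260.4 and 132 in the phloridzin livers. Its model livers overlapped the control livers and its silibinin livers were all above both. It rose by 1.64 with silibinin (Benjamini-Hochberg adjusted p in limma = 0.026) and was -1.10 in model against control (limma, adjusted p = 0.062), not passing. Cyp4a32 fell by 1.81 in model against control (limma, adjusted p = 0.0071) and rose by 1.49 with silibinin (limma, adjusted p = 0.035). Cyp4a12b fell by 1.03 in model against control and rose by 1.40 with phloridzin (limma, adjusted p = 0.012 and 0.0068). Cyp4a12a fell by 1.13 in model against control (limma, adjusted p = 0.023), and Cyp4a31 rose by 1.37 with silibinin (limma, adjusted p = 0.026). The Cyp4a genes are close paralogs, as are Acot1 and Acot2, and their separate values are less certain.

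Acat1, which splits acetoacetyl-CoA in mitochondria, was at 21.6, 38.1 and 18.2 FPKM in the control livers, 7.95, 10.7 and 12.4 in the model livers, 22.2, 51 and 48.9 in the silibinin livers and 26.9, 23.8 and 25.8 in the phloridzin livers. All model livers were below every liver of the other groups. Acat1 fell by 1.20 in model against control and rose by 1.81 with silibinin and 1.24 with phloridzin (Benjamini-Hochberg adjusted p in limma = 0.018, 0.006 and 0.034). Acot2, a mitochondrial thioesterase, rose by 2.07 in model against control and fell by 1.45 with phloridzin (limma, adjusted p = 0.0039 and 0.044). Acot1, its cytosolic paralog, rose by 1.40 with silibinin (limma, adjusted p = 0.032). The synthetases Acsl3 and Acsl4 rose by 1.08 and 1.18 in model against control (limma, adjusted p = 0.0014 and 4.3e-04) and fell with both drugs, by 0.92 and 0.86 with silibinin (limma, adjusted p = 0.0075 and 0.0054). Cd36, a fatty acid receptor, rose by 1.13 in model against control (limma, adjusted p = 0.011).

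For carnitine supply, Slc22a5, the carnitine transporter of the cell membrane, was at 13.7, 16.3 and 16.7 FPKM in the control livers, 6.98, 5.84 and 6.74 in the model livers, 11, 10.5 and 18.2 in the silibinin livers and 13.8, 12.2 and 8.06 in the phloridzin livers. All model livers were below every liver of the other groups. It fell by 1.14 in model against control and rose by 0.88 with silibinin (Benjamini-Hochberg adjusted p in limma = 0.0037 and 0.026). Bbox1, the last enzyme of carnitine synthesis, rose by 1.20 with silibinin (limma, adjusted p = 0.033), and Shmt1 fell by 1.14 in model against control (limma, adjusted p = 0.034).

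Among the regulators, Ppara, the nuclear receptor, was at 14.7, 60.1 and 15.5 FPKM in the control livers, 35.9, 4.74 and 46.2 in the model livers, 43.6, 61.1 and 35.1 in the silibinin livers and 61.6, 46.2 and 31.7 in the phloridzin livers. All groups overlapped, and its log2 changes of -0.22, 1.11 and 1.09 in the first 3 comparisons had 95% intervals of -1.88 to 1.44, -0.55 to 2.77 and -0.56 to 2.75. Its coactivator Ppargc1a was at or under 2.52 FPKM in every liver, with log2 changes of -0.52, 1.12 and 0.57, and did not pass. Fgf21, a secreted hormone that PPAR alpha and cell stress raise, was at 0.48, 0.776 and 0.345 FPKM in the control livers, 10.2, 9.33 and 26.8 in the model livers, 0.808, 0.455 and 0.735 in the silibinin livers and 4.05, 0.161 and 0 in the phloridzin livers. Every model liver was above every liver of the other groups. Fgf21 rose by 3.28 in model against control and fell by 3.15 with silibinin and 3.03 with phloridzin (Benjamini-Hochberg adjusted p in limma = 0.0016, 0.005 and 0.0062). Acaca, which makes malonyl-CoA, was at 8.48, 9.37 and 6.21 FPKM in the control livers, 27.1, 27 and 32.6 in the model livers, 16.3, 24.2 and 12.4 in the silibinin livers and 19.6, 11.8 and 12.7 in the phloridzin livers. Every model liver was above every liver of the other groups. Acaca rose by 1.74 and fell by 0.96 with phloridzin (limma, adjusted p = 7.2e-04 and 0.032), with -0.72 with silibinin not passing (limma, adjusted p = 0.082). Pdk4, a kinase that limits glucose oxidation, rose by 1.66 in model against control, 1.39 in silibinin against control and 1.11 in phloridzin against control (limma, adjusted p = 7.7e-04, 0.013 and 0.024). Nrip1, a corepressor, rose by 1.49 in model against control and fell by 0.81 with phloridzin (limma, adjusted p = 0.0012 and 0.048).

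Markers of cell types were counted to describe the tissue. In the same fit 31.1% of all genes rose and 3.80% fell in model against control. With silibinin 2.62% rose and 11.4% fell, and with phloridzin 2.5% rose and 10.4% fell. At an unadjusted p under 0.05 (limma), 6.74% of all genes were higher and 22.5% lower with silibinin. With phloridzin these shares were 6.98% and 20.8%. Of 10 hepatocyte markers, 1 (Asgr1, named after its values were seen) fell in model against control and 0 passed with either drug (limma), with 0 at an unadjusted p under 0.05 with silibinin and 1 with phloridzin. Their summed level was 19928, 26386 and 22048 FPKM in the control livers, 20259, 29979 and 30448 in the model livers, 31691, 37245 and 22729.6 in the silibinin livers and 24883, 33696 and 28318 in the phloridzin livers, of which Alb was 67.3%. Of 7 pericentral hepatocyte markers 5 fell in model against control, 2 rose with silibinin and 3 rose with phloridzin, and their summed level, 69.8% of it Cyp2e1, was 4917, 2347 and 4467 FPKM in the control livers, 689, 744 and 814 in the model livers, 1842, 1040.1 and 1418 in the silibinin livers and 1109.8, 719 and 797 in the phloridzin livers. Of 7 periportal markers 1 rose and 1 fell in model against control, 1 rose with silibinin and 0 passed with phloridzin (limma), where 3 had an unadjusted p under 0.05. Their summed level, 44.8% of it Ass1, was 3128, 2259 and 2786 FPKM in the control livers, 1870.1, 2101 and 2121 in the model livers, 2359, 3334 and 3735 in the silibinin livers and 2053, 3481 and 5368 in the phloridzin livers. Of 9 stellate cell and myofibroblast markers 7 rose in model against control, 0 passed with silibinin (limma), where 2 had an unadjusted p under 0.05, and 1 fell with phloridzin. Their summed level, 45.7% of it Col3a1, was 16.5, 11.6 and 12.7 FPKM in the control livers, 147, 118 and 150.00 in the model livers, 145, 137 and 60.6 in the silibinin livers and 205, 72.6 and 56.6 in the phloridzin livers, so all 9 livers with CCl4 were above all control livers. Of 8 macrophage markers 4 rose in model against control, against 31.1% of all genes. Their summed level, 51.2% of it Lyz2, was 112, 207 and 165 FPKM in the control livers, 338, 533 and 456 in the model livers, 412, 512 and 396 in the silibinin livers and 641, 624 and 331 in the phloridzin livers.

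Of 6 cholangiocyte markers 3 were tested and 2 rose in model against control, against 31.1% of all genes. Their summed level, 86.8% of it Spp1, was 11.3, 13 and 16.8 FPKM in the control livers, 46.3, 55.7 and 50.3 in the model livers, 48, 48.8 and 24.2 in the silibinin livers and 52.7, 26.9 and 25.7 in the phloridzin livers. The 6 endothelial markers had 0 that passed in model against control (limma) and 1 higher at an unadjusted p under 0.05, against 40.2% of all genes. Their summed level, 43.6% of it Clec4g, was 56.8, 56.3 and 66.1 FPKM in the control livers, 62.1, 76.9 and 65.3 in the model livers, 43.8, 77.4 and 31.2 in the silibinin livers and 77.6, 84.6 and 58.5 in the phloridzin livers. Of 5 lymphocyte markers 3 were tested and 2 rose in model against control, against 31.1% of all genes. Their summed level, 84% of it Ptprc, was 5.22, 7.37 and 7.51 FPKM in the control livers, 17.4, 22.2 and 23.3 in the model livers, 13.5, 18.2 and 16.9 in the silibinin livers and 23.2, 19.5 and 15.1 in the phloridzin livers. With either drug 0 macrophage, cholangiocyte, endothelial or lymphocyte markers passed (limma). At an unadjusted p under 0.05 there were 1 lower macrophage marker and 1 higher cholangiocyte marker with phloridzin and 0 with silibinin. With phloridzin 20.8% of all genes were lower and 6.98% higher at that threshold. Timp1, Gpnmb and Cftr were at 0 in at least 1 liver. Glul, which is expressed around the central vein, was at 451, 299.5 and 383 FPKM in the control livers, 31.1, 34.1 and 36.4 in the model livers, 53.7, 73.4 and 57.1 in the silibinin livers and 52.9, 78 and 55.5 in the phloridzin livers, so every liver with CCl4 was below every control liver. Not all of the 7 pericentral markers went this way, as 2 were above 0 in model against control. At an unadjusted p under 0.05 (limma) 1 of them was higher, against 40.2% of all genes. Axin2 of this list was at 1.12, 3.54 and 0.497 FPKM in the control livers and 2.93, 2.81 and 3.8 in the model livers. The part of cell composition in the member changes was not tested.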

How the data were processed

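Total RNA of 12 livers was extracted with Trizol, made into libraries with the NEB Next Ultra kit and sequenced on a NovaSeq. The authors made FPKM per transcript with bcl2fastq, FastQC 0.11.5, HISAT2 2.1.0 against mm10 and StringTie 1.3.3b, tested for differential expression with DESeq 1.28.0, and deposited the FPKM table used here, with 169430 transcripts, of which 82136 carry a symbol, and 12 livers. Positions of Ensembl transcripts were the same as in GENCODE M21 for 98.1% of those found in both. Silibinin was given at 27.3 mg/kg and phloridzin at 40 mg/kg.

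From these values, FPKM were summed per symbol, a pseudocount of 1 was added and log2 was taken, and genes with a mean of at least 0.5 FPKM over the livers were kept (13158 of 24296 symbols). One limma fit (limma 3.58.1, R 4.3.3, with a variance trend) held all 12 livers in 4 groups without covariates, with 6 contrasts, tested on both sides, and Benjamini-Hochberg adjustment over all genes in each comparison. The fit was tested on simulated data. The plan for counts was not used, since the table holds FPKM. The same fit was run on 50485 transcripts. Tables and figures were made with Python 3.11.15, pandas 2.3.3, numpy 2.4.6 and matplotlib 3.10.9. Depth was worked back from FPKM, transcript length and whole fragment numbers, from transcripts of at least 1500 bases, and covers counting error only. No count table is available, so counting precision per gene is not given.

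The comparisons, alternatives and named-gene rule were set before the fits reported here were run. The members and the related lists were chosen with earlier results of these data known, so the rule that names them is not independent of the data. The rule names Cpt1a, Acadvl, Acadm, Hadha, Ehhadh, Acaa1a, Acaa1b, Hsd17b4 and Acsl1 in any case, the 4 members with the largest change in each of the first 3 comparisons and the 2 in phloridzin against silibinin, members that passed first, and of each related list up to 5 genes that passed with a log2 change past 1, with Ppara, Ppargc1a, Pdk4 and further genes in any case. Some genes and lists of the rule are not reported here. A transcript is named where it passed with a log2 change past 1 and its gene sum did not. Alternatives were a pseudocount of 0.1, no filter, a filter at 5 FPKM, scaling by median ratios or the upper quartile, Ensembl transcripts only, the transcript with the highest mean, a fit of only the compared groups, the replicate number as a block, no variance trend, a log2 change past 1, and each liver left out. All 82136 transcripts with a symbol are Ensembl transcripts, so the fit on Ensembl transcripts only repeats the main fit. Chosen after seeing the data were protein-coding transcripts only, voom on recovered fragments, and the scalings for the related lists. Promoters are from RefSeq on GRCm38.p6. Targeting signals in the protein sequences are not analysed here. For Mmut and its older symbol Mut, which are the same gene, both were looked up.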

Additional observations from a re-analysis of the deposited data

How the results depend on the processing

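The number of members that passed was 9 in model against control, 10 in silibinin against model and 7 in phloridzin against model. Requiring a log2 change past 1 gave 0, 2 and 0. A filter at a mean of 5 FPKM gave 9, 11 and 7, against 5.74% of all genes lower and 4.77% and 4.23% higher. Scaling by median ratios gave 20, 19 and 12, and scaling to the upper quartile gave 20, 20 and 14, all in the direction of the unscaled values, while the share of all genes passing in that direction went from 3.80%, 2.62% and 2.5% to 11.7%, 5.56% and 4.72% by median ratios and 10.2%, 6.35% and 5.09% by the upper quartile. The transcript with the highest mean gave 5 in model against control and 3 in phloridzin against model, against 2.89% of all genes lower and 1.74% higher. A fit of only the compared groups gave 5 (1 of them, Acsl5, higher) and 1, against 3.66% lower, 31.2% higher and 0.593% higher. With the replicate number as a block, silibinin against model gave 6, phloridzin against model 3 and model against control 6, against 2.15% and 1.92% higher and 3.32% lower. Pairs of livers with the same number had correlations between -0.091 and 0.101 with a mean of 0.003, and 2 of 12 livers correlated best with a liver of their own number, so the numbers do not pair the livers and the block removes degrees of freedom without need. Voom on recovered fragments, chosen after seeing the data, gave 3 in phloridzin against model, against 1.83% higher. Silibinin against control gave 1 with a pseudocount of 0.1, where it was 0, and the share of all genes higher went from 4.59% to 7.77%. Phloridzin against control gave 1 in the main fit and 0 with a log2 change past 1, against 3.02% of all genes. It also gave 0 by median ratios, with the transcript with the highest mean and with only the compared groups. Of all genes 4.29%, 2.25% and 1.39% were higher in those fits. Leaving out single livers moved this count too, as given below. Apart from the log2 threshold, why these settings changed the counts was not tested.

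Leaving out each liver in turn gave 3 to 10 members in model against control, 4 to 12 in silibinin against model, 1 to 8 in phloridzin against model, 0 to 0 in phloridzin against silibinin, 0 to 1 in silibinin against control and 0 to 2 in phloridzin against control. Of all genes 2.28% to 3.34% were lower in model against control, 1.17% to 2.45% higher in silibinin against model and 0.897% to 2.76% higher in phloridzin against model. The peroxisomal minus mitochondrial median ran from -0.08 to 0.16, 0.16 to 0.34, 0.16 to 0.30 and -0.19 to 0.07 in the first 4 comparisons. Under the other alternatives it moved by less than its SD between livers, and ran from -0.03 to 0.08, 0.25 to 0.30, 0.15 to 0.21 and -0.16 to -0.12 in the same order.

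Of 20 calls for named members under 18 alternatives each, 276 of 360 values still passed, 83 did not and 1 had the other direction: Acadvl in model against control was at 0.08 with the transcript with the highest mean, and the cause was not tested. For each of the 20 calls the value on Ensembl transcripts only repeats the main fit, so its pass adds nothing. Calls for Acad11 and Decr2 in model against control and silibinin against model, Cpt2 in model against control and Crot in silibinin against model passed in all 18. Each group had 3 livers, and depth ran from 83.7 to 110.9 M fragments per liver. The width of the intervals follows the spread of values between livers, in which counting error was not separated. The counts of members near the threshold move with single livers.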
